A study of Sus scrofa with 20 samples.

Results

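Astrocytes in the amygdala were followed through 10 genes that encode their transporters, channels and identity proteins: SLC1A2, SLC1A3, GJA1, AQP4, SLC4A4, GLUL, GFAP, S100B, ALDH1L1 and KCNJ10. Every probe set that the platform annotation assigned to one of these symbols was taken, which gave 30 of the 47845 probe sets on the array. The rule used symbols and no measured value. Of the 30, 24 passed the filter on low values and were tested, and 6 were too dim. Amygdala RNA of 20 adult German Landrace pigs was measured on the Affymetrix porcine Snowball array, with 1 array per animal. The 10 high-reactive (HR) and the 10 low-reactive (LR) pigs represent opposite coping patterns, scored in piglets from their struggling when held on the back. The tissue was the whole amygdala with its sub-nuclei. Per the study's methods the pigs were chosen from a larger pool both for an extreme early behaviour and for their haplotype in a chromosomal region associated with coping behaviour, so behaviour and haplotype cannot be told apart. No treatment and no sex is given in the labels, both groups share breed, tissue and developmental stage, and replicate numbers only name the animals.

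Astrocytes clear glutamate from the synaptic cleft, take up the potassium that active neurons release, move water and bicarbonate at the vessel wall and pass metabolites to each other through gap junctions. In the amygdala, where emotional stimuli are processed by glutamatergic and GABAergic neurons, this uptake limits how far and how long transmitter acts. SLC1A2 and SLC1A3 encode the glutamate transporters of the astrocyte membrane, and GLUL encodes glutamine synthetase, which turns the glutamate taken up into glutamine. GJA1 encodes the main astrocyte connexin, AQP4 the water channel of the perivascular endfeet, KCNJ10 an inward rectifier potassium channel and SLC4A4 the electrogenic sodium bicarbonate cotransporter. GFAP encodes the intermediate filament of astrocytes, S100B a calcium-binding protein and ALDH1L1 a folate enzyme used as an astrocyte marker. S100B and SLC4A4, among others of these genes, are also expressed outside astrocytes.

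All values are log2 probe set values, so that a difference of 1 is a doubling, and they are compared only within a probe set. Each array carries 69 probe sets without a target in the genome, and their mean gives the background of that array. This background mean lay between 3.98 and 4.37 in HR and between 3.71 and 4.22 in LR. LR replicate 3 had the lowest background mean and stood apart from the other arrays: its median correlation with them over all tested probe sets was 0.876, against 0.958 to 0.981 for the remaining 19. It had the highest value of all 20 animals in 12 of the 24 tested probe sets and the lowest in 5. Animal numbers in the labels also separated the groups, since 9 of 10 HR pigs had a number above every LR pig. All 24 tested probe sets lay above the background mean in all 20 arrays. The filter largely set this outcome, since it required a mean of at least 5.19 and the highest background mean was 4.37. Of the 24, 12 had a mean at or above 8.05, the 95th percentile of the background probe sets. Of 8 neuron genes listed for the amygdala, 7 were named on the platform and 6 tested. Among the 6 were the glutamatergic genes SLC17A7, NEUROD2 and TBR1 and the GABAergic genes GAD2 and SST. No level was set for them that could contradict the amygdala label, so the label was not checked.

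No member differed between HR and LR after correction for multiple testing. In the limma fit over 23828 probe sets with Benjamini-Hochberg adjustment, 0 of the 24 members were called, where 0.00839% of all tested probe sets were, and their adjusted p-values ran from 0.157 to 0.894. At an unadjusted p under 0.05, 7 of the 24 members (29.2%) were reached, beside 26.4% of all probe sets tested. The comparison depended on the unit. By gene, with the brightest probe set each, 5 of 10 members (50%) were reached beside 29.5% of all genes. The choice of probe set mattered for GFAP, which had a limma p of 0.0889 when the tested probe sets of each gene were averaged. SLC1A2, SLC1A3, GJA1 and SLC4A4 stayed under 0.05 in that fit. Under a stricter filter, at the 95th percentile of the background probe sets, 6 of 12 member probe sets (50%) were reached beside 35.7%. Of the 7, 6 had a lower mean in HR (25.0% of the members, against 14.0% of all) and 1 a higher mean in HR (against 12.3% of all). By mean alone 14 members were lower and 10 higher in HR, with a median difference of -0.08 on the log2 scale, where the median over all probe sets was 0.05. The lower means belonged to SLC1A2, SLC1A3, GJA1, AQP4 and SLC4A4, and the higher ones to GLUL, GFAP, S100B, ALDH1L1 and most of KCNJ10. In bulk tissue, fewer cells of a type and less RNA per cell cannot be told apart.

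**Figure D1:**
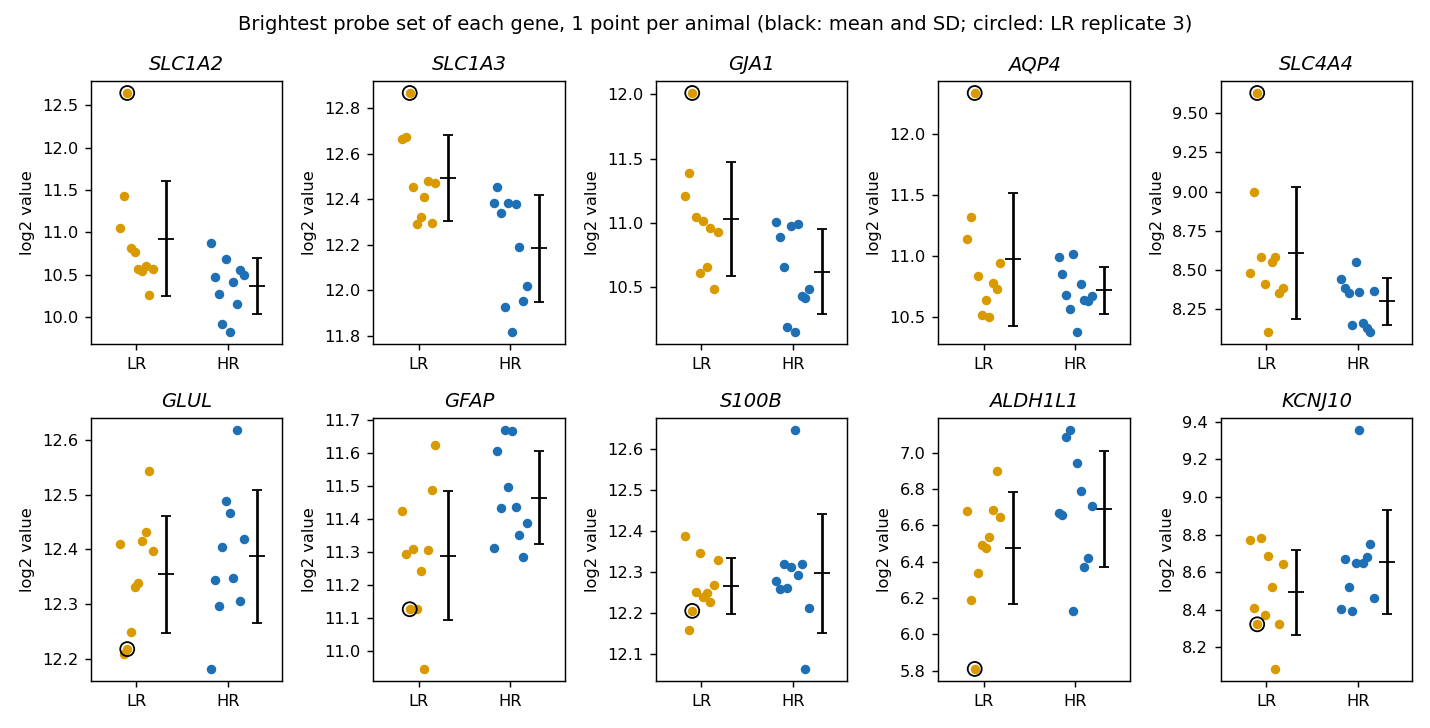
Log2 value (vertical axis) of the brightest probe set of each gene in the LR and HR pigs, 1 point per animal, with the group mean and SD in black and LR replicate 3 circled. The groups overlapped in every gene; LR replicate 3 was the highest animal in SLC1A2, SLC1A3, GJA1, AQP4 and SLC4A4, and the lowest in ALDH1L1.

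The glutamate transporter SLC1A3 had the smallest p-values of the members. In its brighter probe set, SNOWBALL_018599_st, the lowest, median and highest HR animals were at 11.82, 12.27 and 12.46, and the LR animals at 12.29, 12.46 and 12.87. Each of the 10 HR pigs was under the median of the LR pigs, and 5 were under the lowest LR pig. The mean was 12.18 ± 0.23 (SD, n = 10) in HR and 12.49 ± 0.19 in LR, which was 1.24-fold lower in HR (difference -0.31 ± 0.09 SE, limma p = 0.00355, adjusted p = 0.157). The second probe set, SNOWBALL_028209_st, ran from 9.36 over a median of 10.15 to 10.33 in HR and from 10.12 over 10.42 to 10.87 in LR. Here too each of the 10 HR pigs was under the median of the LR pigs, and 8 of 10 LR pigs exceeded the highest HR pig. The difference was -0.43 ± 0.13 (1.35-fold lower in HR, limma p = 0.00227, adjusted p = 0.157). Leaving out LR replicate 3 gave differences of -0.27 and -0.38. With the background mean of each array as a covariate they were -0.17 (p = 0.0483) and -0.23 (p = 0.0335), and these were the only members with an unadjusted p under 0.05 in that fit, 2 of 24 (8.33%), where 4.26% of all probe sets were. Both belong to 1 gene, with r = 0.959 between them, so they are not separate observations.

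SLC1A2, which carries most glutamate uptake in the forebrain, showed the largest difference in means among the tested probe sets. Its probe set SNOWBALL_046251_st was at 9.82, 10.44 and 10.87 in the lowest, median and highest HR animals and at 10.26, 10.69 and 12.64 in LR. The value of 12.64 was LR replicate 3, and the next LR animal was at 11.42. Of the HR pigs, 9 of 10 were under the median of LR. The mean was 10.37 ± 0.33 in HR and 10.93 ± 0.68 in LR, 1.47-fold lower in HR (difference -0.56 ± 0.22, limma p = 0.0172, adjusted p = 0.160). Without LR replicate 3 the difference was -0.37 (p = 0.0159), and with background as a covariate it was -0.17 (p = 0.296). The second probe set, SNOWBALL_039286_st, was dim and not tested, with means of 4.43 in HR and 4.44 in LR.

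GLUL, which acts on the glutamate that these transporters bring in, had nearly equal means. SNOWBALL_013014_st was at 12.39 ± 0.12 in HR and 12.35 ± 0.11 in LR (difference 0.03 ± 0.06, 95% confidence interval -0.10 to 0.16, adjusted p = 0.710 by limma). SNOWBALL_042591_st was at 6.36 ± 0.20 and 6.34 ± 0.21 (difference 0.02, interval -0.17 to 0.21), and SNOWBALL_032000_st was dim and not tested at 3.22 and 3.04. In both tested probe sets 5 of 10 HR animals lay on either side of the LR median.

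GJA1, whose connexin couples astrocytes to each other, had 1 probe set, SNOWBALL_002241_st. HR animals ran from 10.15 over a median of 10.57 to 11.01, and LR animals from 10.49 over 10.99 to 12.01. Of the 10 HR pigs, 5 were under the lowest LR pig and 8 were under the LR median. The mean was 10.62 ± 0.33 in HR and 11.03 ± 0.44 in LR, 1.33-fold lower in HR (difference -0.41 ± 0.16, limma p = 0.0173, adjusted p = 0.160). The difference was -0.30 (p = 0.0323) without LR replicate 3 and -0.13 (p = 0.293) with background as a covariate.

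AQP4, the water channel, had 5 probe sets, all tested, and every one of them had a lower mean in HR with an unadjusted limma p above 0.05. The brightest, SNOWBALL_009108_st, was at 10.38, 10.68 and 11.02 in the lowest, median and highest HR animals and at 10.50, 10.81 and 12.33 in LR. Its means were 10.72 ± 0.19 and 10.97 ± 0.54, a difference of -0.26 ± 0.17 (p = 0.141, adjusted p = 0.290). In SNOWBALL_028853_st, SNOWBALL_047205_st, SNOWBALL_047234_st and SNOWBALL_047223_st the differences were -0.33, -0.27, -0.18 and -0.37, with adjusted p-values between 0.242 and 0.408. LR replicate 3 was the highest of all 20 animals in all 5 probe sets. Without it the differences shrank to between -0.16 and -0.05, the brightest to -0.10. With background as a covariate they lay between -0.03 and 0.06, and 4 of 5 turned positive.

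SLC4A4, the bicarbonate cotransporter, had an unadjusted p under 0.05 in 2 of its 4 tested probe sets. SNOWBALL_011536_s_st was at 8.10, 8.36 and 8.55 in HR and at 8.11, 8.52 and 9.63 in LR for the lowest, median and highest animals, and 9 of 10 HR pigs were under the LR median. The mean was 8.30 ± 0.15 in HR and 8.61 ± 0.42 in LR, 1.24-fold lower in HR (difference -0.31 ± 0.13, limma p = 0.0302, adjusted p = 0.172). SNOWBALL_027205_st was at 6.33 ± 0.31 in HR and 6.84 ± 0.78 in LR, with LR replicate 3 at 8.78 and HR replicate 6 at 5.55 (difference -0.51 ± 0.24, limma p = 0.0447, adjusted p = 0.184). Without LR replicate 3 these differences were -0.20 (p = 0.0394) and -0.30 (p = 0.0633), and with background as a covariate -0.10 (p = 0.381) and -0.10 (p = 0.597). SNOWBALL_022764_st and SNOWBALL_022763_st differed by -0.04 (interval -0.16 to 0.09) and -0.12 (interval -0.29 to 0.05). The dim SNOWBALL_034227_st and SNOWBALL_011603_st, at means of 4.16 and 2.10 in HR and 4.32 and 2.04 in LR, were not tested.

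KCNJ10, the potassium channel, did not share the direction of these transporters in its brightest probe set. SNOWBALL_034066_st was at 8.40, 8.65 and 9.36 in the lowest, median and highest HR animals and at 8.09, 8.47 and 8.78 in LR, and the value of 9.36 was HR replicate 6. The means were 8.65 ± 0.28 and 8.49 ± 0.23 (difference 0.16 ± 0.11, interval -0.06 to 0.39, adjusted p = 0.303 by limma). SNOWBALL_039066_st and SNOWBALL_046914_st differed by 0.04 and -0.02, or 0.02 and -0.07 without LR replicate 3, and SNOWBALL_033832_st was dim and not tested at 2.40 in HR and 2.28 in LR.

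GFAP, the filament gene that rises in reactive astrocytes, was the member with an unadjusted p under 0.05 and a higher mean in HR. SNOWBALL_014346_st was at 11.29, 11.43 and 11.67 in the lowest, median and highest HR animals and at 10.95, 11.30 and 11.63 in LR, and 9 of 10 HR animals lay above the LR median. The mean was 11.47 ± 0.14 in HR and 11.29 ± 0.20 in LR, 1.13-fold higher in HR (difference 0.18 ± 0.08, limma p = 0.0381, adjusted p = 0.177). SNOWBALL_034646_st was at 10.86 ± 0.17 and 10.75 ± 0.19 (difference 0.11 ± 0.08, p = 0.210). SNOWBALL_027707_st was at 10.47 ± 0.13 and 10.34 ± 0.20 (difference 0.13 ± 0.08, p = 0.117), and all 10 HR animals lay above its LR median. With background as a covariate the first difference was 0.11 (p = 0.203), and without LR replicate 3 it was 0.16 (p = 0.0586). SNOWBALL_045005_st was dim and not tested at 3.43 in HR and 3.36 in LR.

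The identity genes S100B and ALDH1L1 did not differ past the threshold. S100B, with the single probe set SNOWBALL_026495_st, was at 12.30 ± 0.15 in HR and 12.27 ± 0.07 in LR (difference 0.03 ± 0.06, interval -0.10 to 0.16, adjusted p = 0.728 by limma), and its highest animal was HR replicate 6 at 12.65. ALDH1L1 ran from 6.13 over a median of 6.69 to 7.13 in HR and from 5.81 over 6.52 to 6.90 in LR in SNOWBALL_025932_st. Its means were 6.69 ± 0.32 and 6.48 ± 0.31 (difference 0.21 ± 0.13, interval -0.06 to 0.49, adjusted p = 0.265). This difference was 0.14 without LR replicate 3, and with background as a covariate 0.02. The second ALDH1L1 probe set, SNOWBALL_021459_s_st, differed by 0.09 ± 0.10, which became 0.04 and -0.04 under the same changes.

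**Figure D2:**
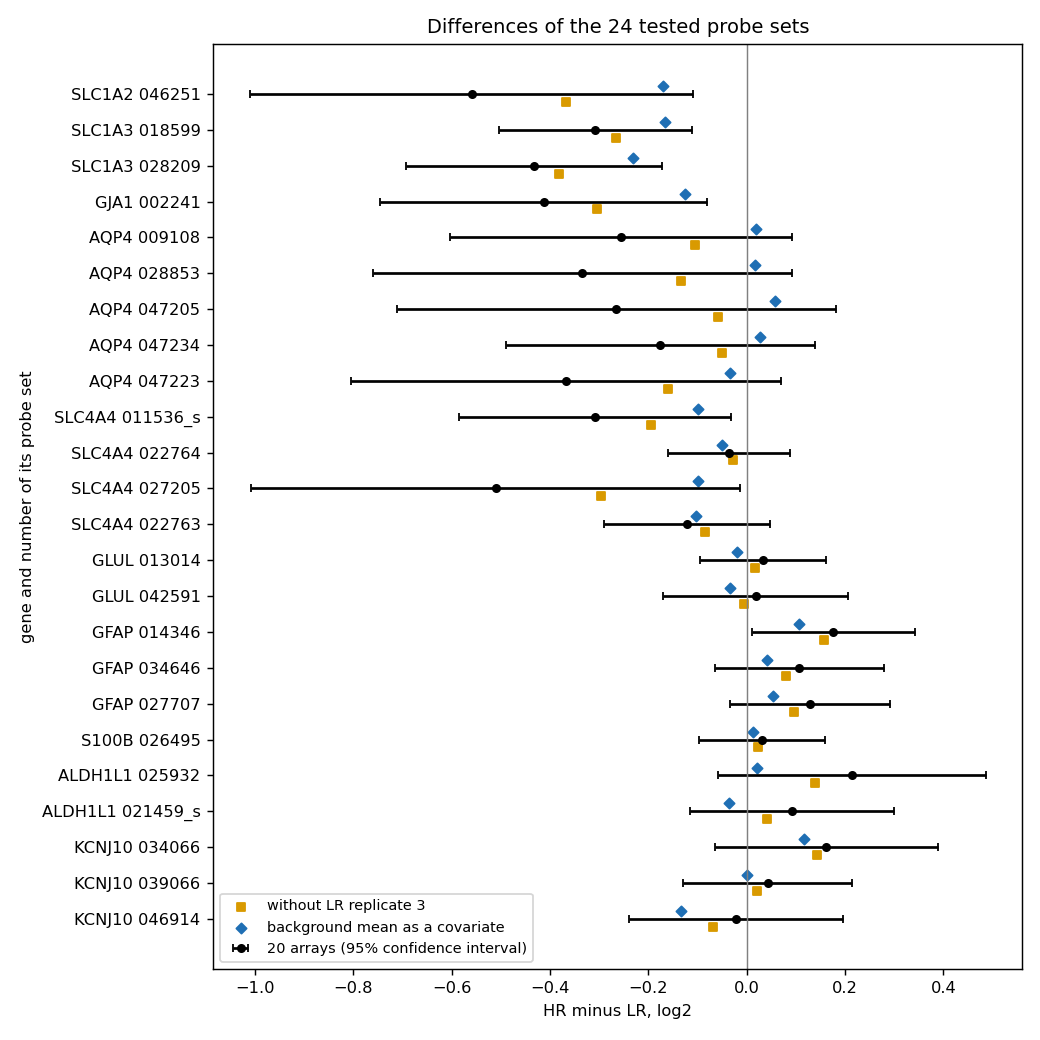
HR minus LR difference on the log2 scale (horizontal axis) of the 24 tested probe sets (vertical axis). Black points and bars give the value over 20 arrays with its 95% confidence interval, squares the value without LR replicate 3, and diamonds the value with the background mean as a covariate; among the 7 probe sets whose interval leaves out 0, squares and diamonds lie nearer to 0 in all 7.

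All 7 members with an unadjusted p under 0.05 had a smaller difference under either change. Without LR replicate 3 they retained 57.9% to 89.8% of their size, and 5 of 24 members (20.8%) had an unadjusted p under 0.05, against 18.5% of all probe sets. With the background mean as a covariate they retained 19.5% to 60.1%. With the animal number from the labels as a covariate they retained 48.7% to 94.98% and none had an unadjusted p under 0.05, in a fit where number and group largely coincide. What part array background or animal number has in these differences was not tested.

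Probe sets of the same gene gave closely related values in some members and not in others. Over the 20 animals Pearson's r between probe sets was 0.959 in SLC1A3, 0.864 to 0.971 among the 5 of AQP4 and 0.859 to 0.971 among the 3 of GFAP. It was 0.711 in GLUL and 0.610 in ALDH1L1. In SLC4A4 it ran from 0.0677 to 0.886 and in KCNJ10 from -0.02 to 0.541, so that some probe sets of these genes followed each other and others did not. Within an array the brightest probe set was set against the mean of the others of its gene, a contrast that the scaling of the array leaves unchanged. Between HR and LR that contrast had its smallest p in SLC1A3, with a difference of 0.12 (permutation p = 0.0349, adjusted p = 0.244 over 7 genes), and its largest difference in KCNJ10, 0.15 (permutation p = 0.230, adjusted p = 0.403). No gene passed the threshold.

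**Figure D3:**
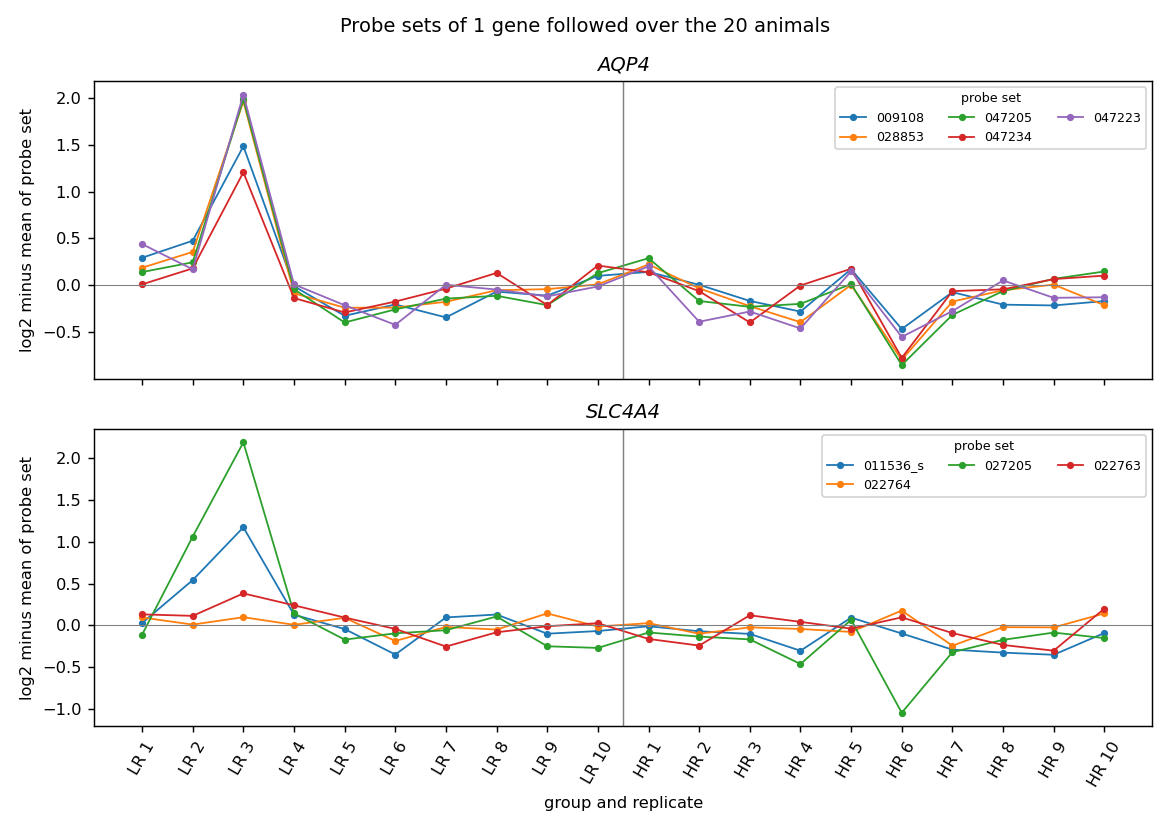
Log2 value minus the mean of the probe set (vertical axis) in each of the 20 animals (horizontal axis, LR left of the grey line and HR right of it) for the tested probe sets of AQP4 and SLC4A4, 1 line per probe set. The 5 AQP4 lines run together, with LR replicate 3 at the top and HR replicate 6 at the bottom, whereas the SLC4A4 probe sets SNOWBALL_011536_s_st and SNOWBALL_027205_st peak in LR replicate 3 and SNOWBALL_022764_st stays nearly flat.

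Across animals some of the members varied together. Of 45 pairs of members, each represented by its brightest probe set, 20 had an adjusted permutation p under 0.05 for Pearson's r (12 positive, 8 negative), and 14 of these also for Spearman's rho. The share of passing pairs among all tested genes was not counted, so this count is not shown to be particular to the members. SLC1A2, SLC1A3, GJA1, AQP4 and SLC4A4, grouped here after their values were seen, gave 10 pairs with r from 0.712 to 0.922 and rho from 0.591 to 0.848, and all 10 passed by both measures. Because of that grouping, the count describes the set and does not test it. All 5 genes also followed the main axis of variation among the arrays, the first principal component of all tested probe sets. Their r with it ran from -0.970 in SLC1A2 to -0.846 in SLC1A3. In the other members it was 0.770 in ALDH1L1, 0.562 in GLUL, 0.522 in GFAP, 0.381 in S100B and 0.374 in KCNJ10. The members were among the probe sets that gave this component. How many of all tested genes follow it was not counted, so the relation is not shown to be particular to the 5 genes. By r the closest pair was SLC1A2 and AQP4 (r = 0.922, rho = 0.686, adjusted permutation p = 9.0e-05 and 0.00737), at r = 0.777 without LR replicate 3. By rho, and by r without LR replicate 3, it was SLC1A3 and GJA1 (rho = 0.848, r = 0.908 without that animal). Without LR replicate 3 the 10 pairs ran from 0.583 to 0.908, and without the 2 animals farthest from the median of the first gene of each pair from 0.380 to 0.886. Within groups they ran from 0.417 to 0.928 in HR and from 0.826 to 0.943 in LR. After the background mean was regressed out of both genes, r was 0.294 to 0.812.

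GLUL, GFAP, S100B, ALDH1L1 and KCNJ10 were less closely related. Their 10 pairs had r from 0.108 to 0.604, and 2 of them passed, GFAP with ALDH1L1 (r = 0.541, rho = 0.564, adjusted permutation p = 0.0343 and 0.0337) and S100B with KCNJ10 (r = 0.604, rho = 0.251, adjusted p = 0.0405 and 0.413). S100B and KCNJ10 shared HR replicate 6 as their highest animal, and without the 2 animals farthest from the S100B median their r was 0.431. All 25 pairs between these genes and the transporter set had a negative r, from -0.771 to -0.160, and 8 passed for r and 3 for rho. The 25 pairs rest on the same grouping, made after the values were seen, so these counts are a description. The sign was not uniform under other settings, since the highest r of these pairs was 0.0921 without LR replicate 3, 0.349 without the 2 animals farthest from the median of the first gene and 0.371 after background was regressed out. The most negative over the 20 animals was SLC1A2 with ALDH1L1 (r = -0.771, rho = -0.650, adjusted permutation p = 0.000731 and 0.0121), which stayed at -0.562 without the 2 animals farthest from the SLC1A2 median. Animals high in SLC1A2 signal tended to be low in ALDH1L1 signal.

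**Figure D4:**
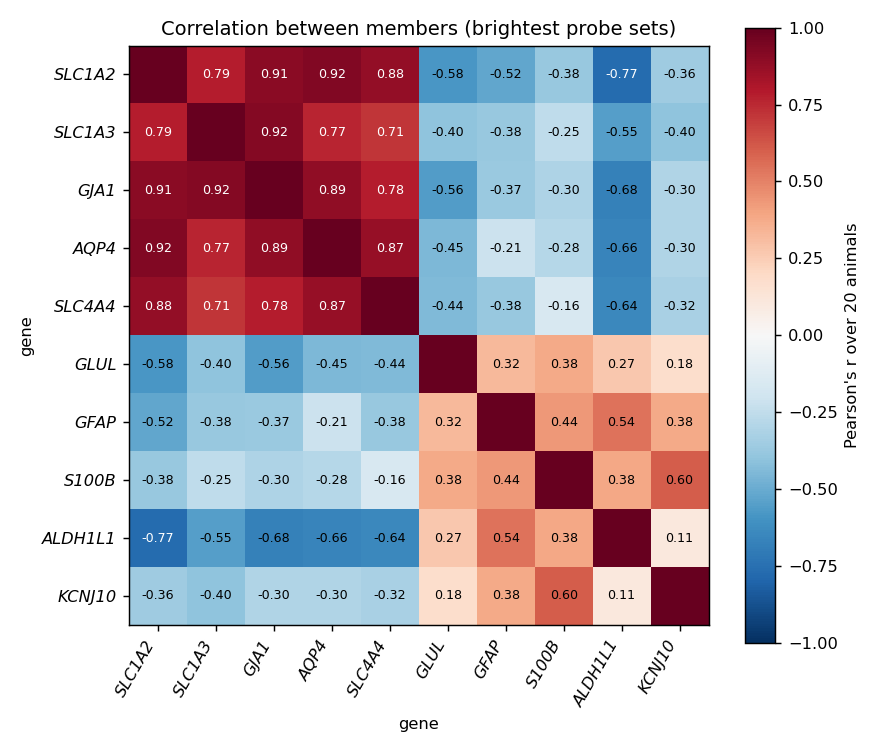
Pearson's r over the 20 animals between the brightest probe sets of each pair of the 10 genes (both axes), from blue at -1 to red at 1. The block of SLC1A2, SLC1A3, GJA1, AQP4 and SLC4A4 is red throughout (0.71 to 0.92), and its 25 pairs with the other genes are all below 0.

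The same division appeared against array background. Over the 20 arrays the background mean was negatively related to SLC1A2 (r = -0.821, rho = -0.666), SLC1A3 (r = -0.776, rho = -0.583), GJA1 (r = -0.830, rho = -0.723), AQP4 (r = -0.749, rho = -0.459) and SLC4A4 (r = -0.764, rho = -0.558). It was positively related to ALDH1L1 (r = 0.703, rho = 0.620), GFAP (r = 0.557, rho = 0.528) and GLUL (r = 0.507, rho = 0.474). These 8 of 10 members passed for Pearson's r, with adjusted permutation p-values from 0.000233 to 0.0282, and AQP4 and GLUL did not pass for rho (adjusted p = 0.0555 and 0.0506). S100B (r = 0.209) and KCNJ10 (r = 0.304) did not pass. The median r with background over all tested genes was 0.326, and over the 8 general neuron genes it was -0.857. How many of all tested genes would pass the same test was not counted. The 8 of 10 is therefore not shown to be particular to the members. When the 2 arrays of most extreme background were left out (LR replicate 3, lowest, and HR replicate 4, highest), 3 members passed: SLC1A2 (r = -0.567), SLC1A3 (r = -0.641) and GJA1 (r = -0.644).

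Within the groups the relation of the transporters to background was measured separately. Within HR r was -0.659 in SLC1A2, -0.845 in SLC1A3, -0.891 in GJA1, -0.836 in AQP4 and -0.515 in SLC4A4, with rho from -0.855 to -0.527. Within LR r was between -0.858 and -0.594 but rho only between -0.345 and -0.0909, since LR replicate 3 combined the lowest background with the highest transporter values. ALDH1L1 was at r = 0.914 and rho = 0.818 within LR and at r = 0.374 and rho = 0.515 within HR. The difference between the groups in these relations was not tested.

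**Figure D5:**
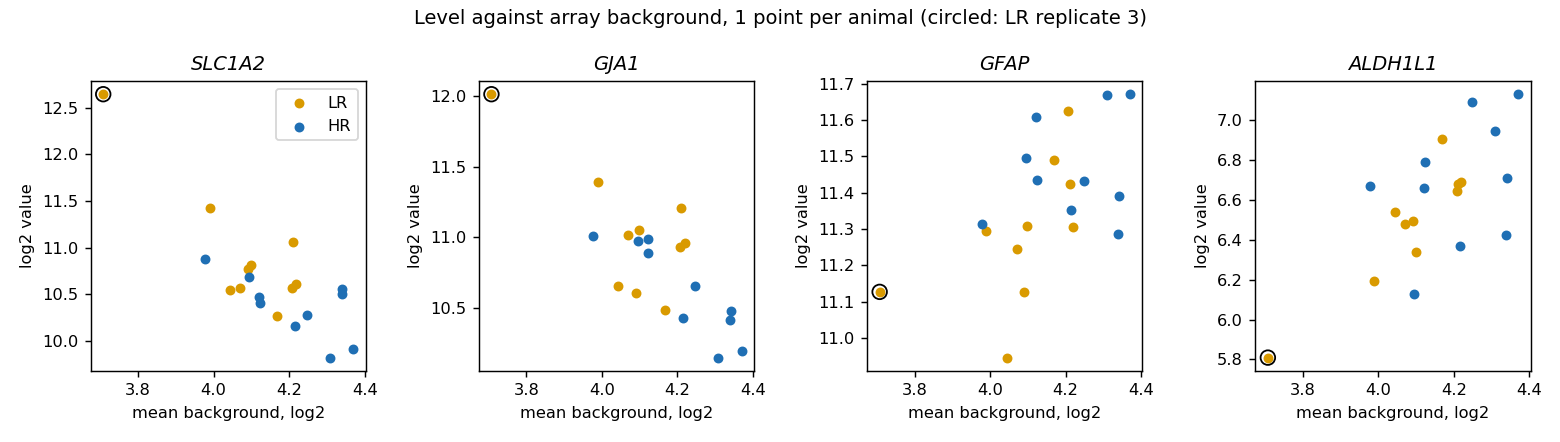
Log2 value (vertical axis) of the brightest probe set of SLC1A2, GJA1, GFAP and ALDH1L1 against the mean log2 value of the background probe sets of the same array (horizontal axis), 1 point per animal with LR replicate 3 circled. SLC1A2 and GJA1 fall with background and GFAP and ALDH1L1 rise with it, and LR replicate 3 lies at the far left at a background mean of 3.71.

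The genes whose pattern over the 20 animals was most like a member were looked up among the 10298 other tested genes, as a description with no test. Closest to SLC1A2 was the circadian transcription factor gene CLOCK (r = 0.977, and 0.938 without LR replicate 3), followed by DOPEY1 and NUFIP2. Closest to SLC1A3 were EPB41L2, a membrane skeleton protein gene (r = 0.973, 0.969 without LR replicate 3), GPR75 and ZNF664. Closest to GJA1 were PON2 (r = 0.974), the endoplasmic reticulum chaperone gene HSPA5 (r = 0.966) and PCMTD1. Closest to AQP4 were MTDH (r = 0.955, 0.853 without LR replicate 3), HBP1 and PDZD8, and closest to SLC4A4 were SMAD5 (r = 0.942), DNM3 and IQGAP1. Over the 20 animals an r above 0.9 was shared with 704 genes by SLC1A2, 393 by GJA1, 303 by AQP4, 209 by SLC1A3 and 49 by SLC4A4. Without LR replicate 3, r with AQP4 was 0.870 for HBP1 and 0.849 for PDZD8. In SLC4A4 it was then 0.844 for SMAD5, 0.809 for DNM3 and 0.801 for IQGAP1, so these counts lean on that animal. The same count for other tested genes is not set beside them, so they are not shown to be particular to the members.

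By contrast, 0 genes reached that r with GLUL, GFAP, S100B, ALDH1L1 or KCNJ10. The most alike were MKS1, CNTN2 and EXT1 for GLUL (r = 0.832, 0.827 and 0.824) and MESDC2, ZNF275 and TMEM231 for GFAP (0.809, 0.795 and 0.787). For S100B they were LARS2, NGFRAP1 and NR4A1 (0.787, 0.786 and 0.781), for ALDH1L1 TXNRD2, TNFAIP8L3 and PPP4R1 (0.873, 0.851 and 0.848), and for KCNJ10 DPCD, PLCB2 and PRC1 (0.744, 0.742 and 0.724). No other member was among the 3 genes most like a member.

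Other genes of astrocytes showed no larger share of differences than the array as a whole. Of 81 further astrocyte genes, 69 were named on the platform and 62 were tested by their brightest probe set. With limma 0 were called after adjustment, and 9 (14.5%) had an unadjusted p under 0.05, 5 lower and 4 higher in HR, where 29.5% of all 10299 tested genes did. Their median difference was 0.03, against 0.05 over all genes.

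Among 10 tested genes of amino acid and ion handling, 1 was lower and 1 higher in HR at an unadjusted p under 0.05. DTNA, dystrobrevin of the complex that holds AQP4 at the endfeet, was at 9.03 ± 0.32 in HR and 9.43 ± 0.31 in LR (difference -0.41, limma adjusted p = 0.157), and all 7 of its probe sets had a lower mean in HR. MLC1 and HEPACAM, membrane proteins that form a complex at astrocyte contacts, differed by 0.19 (adjusted p = 0.179) and 0.12 (adjusted p = 0.329). The glycine transporter SLC6A9 differed by 0.15 (adjusted p = 0.331). Without LR replicate 3, HEPACAM and SLC6A9 differed by 0.06 and 0.08, and MLC1 by 0.13 (limma p = 0.0780). With background as a covariate the differences were -0.16 for DTNA, 0.07 for MLC1 (limma p = 0.369), -0.02 for HEPACAM and 0.02 for SLC6A9.

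In metabolism and secreted proteins, 1 of 21 was lower and 2 were higher at an unadjusted p under 0.05. DIO2, the deiodinase that activates thyroid hormone in glia, was at 6.58 ± 0.27 in HR and 7.01 ± 0.52 in LR (difference -0.43, limma adjusted p = 0.161). PYGB, the brain form of glycogen phosphorylase, differed by 0.22 (adjusted p = 0.157), CST3, cystatin C, by 0.27 (adjusted p = 0.164), and the lactate transporter SLC16A1 by -0.27 (adjusted p = 0.210). With background as a covariate these were 0.11 for PYGB, 0.09 for CST3, -0.24 for DIO2 and -0.02 for SLC16A1.

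Of 16 transcription factor and receptor genes, 2 were lower at an unadjusted p under 0.05, BMPR1B (difference -0.31, limma adjusted p = 0.157) and SOX2 (-0.16, adjusted p = 0.177), whereas GPR37L1 (0.23, adjusted p = 0.198) and FGFR3 (0.18, adjusted p = 0.209) had higher means in HR. All 4 BMPR1B probe sets had a lower mean in HR. Of 15 genes of reactive astrocytes, 1 was lower and 1 higher at an unadjusted p under 0.05. HSPB1, a small heat shock protein, differed by 0.24 (limma adjusted p = 0.159), OSMR, the oncostatin M receptor, by -0.27 (adjusted p = 0.174), AMIGO2 by -0.24 (adjusted p = 0.232) and TIMP1, an inhibitor of metalloproteinases, by 0.20 (adjusted p = 0.238). GPR37L1 and TIMP1 differed by 0.15 and 0.13 without LR replicate 3. With background as a covariate TIMP1 differed by 0.01 and BMPR1B by -0.22. In that fit SOX2 differed by -0.12, GPR37L1 and FGFR3 each by 0.09, HSPB1 by 0.11, OSMR by -0.25 and AMIGO2 by -0.20.

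Markers of other cell types differed in both directions. Of 8 tested general neuron genes, 5 had an unadjusted limma p under 0.05 and a lower mean in HR and 0 a higher one, with a median difference of -0.24 and a median r with background of -0.857. Their mean level ran from 10.09 to 10.59 in HR and from 10.26 to 10.99 in LR, highest in LR replicate 3. The oligodendrocyte precursor genes, 2 of 3 lower, ran from 6.70 to 7.11 in HR and from 6.88 to 7.88 in LR, again highest in LR replicate 3. At the same unadjusted threshold 2 of 9 oligodendrocyte genes (22.2%) and 1 of 2 mural genes were lower in HR. Higher in HR were 2 of 7 microglia genes (28.6%, median difference 0.11), 1 of 5 endothelial genes (20%, median 0.10) and 1 of 4 choroid plexus and ependyma genes (25.0%, median 0.15). Of the 6 amygdala neuron genes 1 was lower and 2 were higher (median 0.13). These shares stand beside 29.5% of all tested genes. None of these genes was called after adjustment, and their part in the differences of the members was not tested.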

How the data were processed

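The authors deposited log2 probe set values for 20 arrays, scanned with GCOS 1.1.1 per the submitters' processing notes. The study's methods name the robust multichip average, which corrects background, applies quantile normalization and gives 1 value per probe set. The study's detection filter had not been applied. The table held 47845 probe sets, of which 26426 had 1 gene symbol in the platform annotation, which can be old, and 123 were controls. Tested were the 23828 probe sets (10299 named genes among them) with a mean at or above the table's median (5.19), controls left out. No values were normalized again. Array medians ran from 5.14 to 5.22, arrays give no read depth, and their number limits the precision.

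HR and LR groups came from the labels. Differences were fitted with limma 3.58.1 in R 4.3.3 (2-sided, Benjamini-Hochberg over all tested probe sets, threshold 0.05). Correlations and contrasts within an array used 100000 resamples in permutation tests (2-sided, numpy 2.4.6, scipy 1.17.1). A gene with several probe sets was represented by the brightest on average. Scripts were tested on simulated data.

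The members and lists were chosen with earlier results of these data known. Named were all members, in each list up to 4 genes of smallest p, and the 3 genes most correlated with each member. For lists of cell types other than astrocytes counts and summary values are given, and no single gene's value. Alternatives covered the filter, scaling, array weights, covariates and left-out arrays. No sequence is shown, and no build is given for the annotation's positions, so no coordinates are printed.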

Additional observations from a re-analysis of the deposited data

Results flagged for a closer look

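In 12 of 50 sets of 10 values (24 probe sets and the array background in each group) the extreme animal lay farther from its neighbour than Dixon's 95% limit for 10 samples, where chance gives about 1 in 20 for a single set. The sets share the same arrays, and several are probe sets of the same gene. They are therefore not independent, and the count of 12 was not tested against chance. LR replicate 3 accounted for 8 of them. It was the highest LR animal in SLC1A2 (12.6, the next at 11.4), in the SLC1A3 probe set SNOWBALL_028209_st (10.9, the next at 10.5) and in all 5 AQP4 probe sets, where it was at 12.3 in SNOWBALL_009108_st, 9.98 in SNOWBALL_028853_st, 9.71 in SNOWBALL_047205_st, 8.29 in SNOWBALL_047234_st and 8.27 in SNOWBALL_047223_st. It also had the lowest background mean, 3.71, against 3.99 for the next LR array. HR replicate 6 accounted for the other 4: it was the lowest HR animal in AQP4 SNOWBALL_047205_st (6.87) and SLC4A4 SNOWBALL_027205_st (5.55) and the highest in S100B (12.6) and KCNJ10 SNOWBALL_034066_st (9.36). These values were kept in all comparisons, and the comparisons without LR replicate 3 stand beside them.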

How the results depend on the processing

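No member passed the adjusted threshold under any setting run. The count of members at an unadjusted p under 0.05 (7) was 3 with array weights, 2 with background as a covariate, 0 with animal number as a covariate, and 5 to 7 when 1 array was left out. Added after seeing the data were a fit without the 4 arrays of lowest correlation, which gave 1, and a fit with background as a covariate and no LR replicate 3 array, which gave 1. The count among other astrocyte genes (9) was 3 with the background covariate, 1 with the animal number, 2 without the 4 arrays and 3 with background as a covariate and no LR replicate 3 array. Members related to background fell from 8 to 3 without LR replicate 3 and HR replicate 4. The causes of these changes were not tested.

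Over the member probe sets 205 of 228 values kept their direction and side of the threshold and 23, of 9 probe sets, turned direction. None of these 9 had an unadjusted p under 0.05. In AQP4 the difference became 0.0183, 0.0159, 0.0579 and 0.0269 with the background covariate and 0.0195, 0.0219, 0.0795 and 0.0519 without the 4 arrays (SNOWBALL_009108_st, SNOWBALL_028853_st, SNOWBALL_047205_st and SNOWBALL_047234_st). GLUL SNOWBALL_013014_st became -0.0204 with background, -0.0184 with animal number, -0.0145 without the 4 arrays and -0.0213 with background and no LR replicate 3. GLUL SNOWBALL_042591_st became -0.0348, -0.0434, -0.0676 and -0.0300 in the same order, and ran from -0.0223 to 0.0623 with 1 array left out. ALDH1L1 SNOWBALL_021459_s_st became -0.0245 with array weights, -0.0367 with background, -0.0648 without the 4 arrays and -0.0301 with background and no LR replicate 3. KCNJ10 SNOWBALL_039066_st became -0.000227 with background and -0.0284 without the 4 arrays. S100B became -0.0299 without the 4 arrays. With 1 array left out S100B ran from -0.00834 to 0.0566 and KCNJ10 SNOWBALL_046914_st from -0.0679 to 0.0227. Of the named other astrocyte genes HEPACAM became -0.0161 with background, -0.0178 without the 4 arrays and -0.00514 with background and no LR replicate 3, and SLC6A9 -0.0112 without the 4 arrays. With 1 array left out, 471 of 480 member values kept direction and side.

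No paired analysis was possible because the labels' animal numbers pair no HR animal with an LR animal. Arrays give no depth, and the 6 probe sets under the filter were near or below the background mean.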
